A study of Homo sapiens with 5 samples.

Results

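The genes described here belong to the unfolded protein response, to the response driven by the transcription factor ATF4, and to the serine and amino acid synthesis enzymes that ATF4 serves. The set was a list of 42 gene symbols, each taken where a feature of the array carried exactly 1 symbol, with the brightest feature used for a gene that had several. This measured 40 of the 42 genes, among 14232 genes in all, and PSPH and HSP90B1 were left out because their features carry several symbols. The study measured total RNA of human lung cancer cell lines on 5 whole-transcript arrays, each a single sample. A549 carries a loss-of-function mutation of LKB1, a kinase known as a lung tumour suppressor, and was described by the submitters as high in NEDD9, a scaffold protein of integrin signalling. A549 was profiled as a control and with each of 2 different short hairpin RNAs against NEDD9, called hairpin 1 and hairpin 2 here. CRL-5907 has wild-type LKB1 and was described as low in NEDD9, and was profiled as a control and with NEDD9 overexpression. The labels do not give the construct that either control carried, the vector, the time after transfer, or whether pools or clones of cells were used, and for hairpin 2 the free-text label reads NEDD10, although the title reads NEDD9.

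The endoplasmic reticulum (ER) folds proteins for the membrane and for secretion, and unfolded protein there activates the sensors IRE1 (gene ERN1), PERK (gene EIF2AK3) and ATF6. PERK and other kinases phosphorylate the initiation factor eIF2, which lowers most translation while favouring that of ATF4, and ATF4 then raises genes for amino acid synthesis, amino acid import and tRNA charging. IRE1 splices the mRNA of XBP1, and spliced XBP1 and cleaved ATF6 raise chaperones and the machinery that sends misfolded proteins to degradation. Much of this regulation acts on translation, splicing or protein cleavage, which mRNA arrays of this kind do not measure.

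All values are log2 levels made by RMA, a method that corrects, normalizes and summarizes probe signals, and a difference of 1.00 is 2-fold. Levels depend on each gene's probes and are compared between arrays, not between genes. NEDD9 read 8.94, 8.35 and 8.52 in A549 (control, hairpin 1, hairpin 2), so it was lower by 0.59 and 0.41 with the hairpins, and it read 4.66 and 9.49 in CRL-5907 (control, overexpression), a difference of 4.83. The array medians over named features lay between 5.69 and 5.85. Of the 6 epithelial markers looked at, KRT8 read 11.04 to 11.76 and EPCAM 6.56 to 8.22, and all 6 lay above those medians. PTPRC, which defines leukocytes, read 1.72 on all 5 arrays, but the monocyte gene CD14 read 6.47, 6.08 and 5.63 in A549 and 6.91 and 6.96 in CRL-5907, and its part in any result was not tested. The fibroblast and endothelial markers lay below the medians, apart from COL1A1 at 5.72 to 5.88. Mean levels of the 40 genes ran from 5.29 for ATF3 to 11.24 for SLC38A2, and 39 of them, all but ATF3, lay above the mean level of the median gene. Because differences on these arrays shifted with level, the counts over the 40 genes in each main comparison are set beside the shares in all 14232 genes and in the 7116 genes above the median level.

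Of the response elements these pathways are known for, several stand close to the gene starts, and their sequences are shown for the genes whose values are used most below. In the RefSeq promoter table (GRCh38.p14), 40 of the 42 genes had an entry, and the 250 bases before each start were searched on both strands. The C/EBP-ATF response element, searched as TGATGNAA, is the element through which ATF4 acts. It was found before a start of 8 genes (AARS1, ASNS, ATF3, CEBPG, CHAC1, GARS1, HERPUD1 and SLC1A5), that is 8 of the 40 genes with an entry, beside 3.89% of all 27305 genes of the table and 3.14% of its 35116 windows. The ER stress response element, searched as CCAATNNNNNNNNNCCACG and bound by ATF6 with NF-Y, was found before a start of 6 genes (CALR, CRELD2, HSP90B1, HSPA5, PDIA6 and XBP1) and of 0.0916% of all genes, or in 0.074% of all windows. The unfolded protein response element, searched as TGACGTGG, was found before a start of HYOU1 and of 0.78% of all genes, or in 0.612% of windows. The matches of GARS1, CEBPG, SLC1A5 and PDIA6 overlap the annotated gene itself and do not lie upstream of every start of that gene. A match is a run of letters and not a measured binding site.

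The following stretches carry the C/EBP-ATF element in capitals, written 5′ to 3′ on the strand of the gene, and are shown because these genes include ATF3, which passed the 1.5-fold rule, and ASNS and AARS1, which were lower with overexpression. They lie at chr1:212565190-212565249 (ATF3, plus strand), chr16:70289660-70289719 (AARS1, minus strand), chr7:97872458-97872487 (ASNS, minus strand) and chr16:56931940-56931999 (HERPUD1, plus strand). The element ends 183, 179, 60 and 168 bases before the start of the respective gene. The ASNS stretch overlaps the annotated genes ASNS and CZ1P-ASNS. In AARS1 and HERPUD1 it runs on the opposite strand, so its letters appear in reverse complement.
ATF3: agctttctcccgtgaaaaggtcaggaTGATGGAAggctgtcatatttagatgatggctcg
AARS1: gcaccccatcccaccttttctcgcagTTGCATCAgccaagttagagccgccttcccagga
ASNS: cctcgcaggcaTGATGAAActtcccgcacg
HERPUD1: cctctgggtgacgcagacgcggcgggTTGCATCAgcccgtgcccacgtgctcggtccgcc

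The next stretches carry the ER stress response element of HSPA5, XBP1 and CRELD2, and the unfolded protein response element of HYOU1, in capitals, and are shown because they belong to the ER branch of the set, whose values differed from gene to gene. They lie at chr9:125241371-125241430 (HSPA5, minus strand), chr22:28800583-28800642 (XBP1, minus strand), chr22:49918533-49918592 (CRELD2, plus strand) and chr11:119057360-119057419 (HYOU1, minus strand). The elements end 47, 33, 61 and 180 bases before the start, and that of CRELD2 runs on the opposite strand.
HSPA5: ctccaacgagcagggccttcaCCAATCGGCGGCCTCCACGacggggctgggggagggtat
XBP1: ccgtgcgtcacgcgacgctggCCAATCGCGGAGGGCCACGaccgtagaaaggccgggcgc
CRELD2: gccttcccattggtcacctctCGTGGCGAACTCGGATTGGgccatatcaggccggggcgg
HYOU1: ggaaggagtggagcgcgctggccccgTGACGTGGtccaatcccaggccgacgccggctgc

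The first comparison asked what lowering NEDD9 did to these genes in A549. Most of them were slightly higher with both hairpins, among them the stress sensor ATF6, asparagine synthetase (ASNS), the serine synthesis gene PSAT1, the alanine and serine transporter SLC1A4 and the tryptophanyl-tRNA synthetase WARS1, but no gene of the set reached 1.5-fold. Of the 40 genes, 31 (77.5%) were higher with both hairpins than in the control, 1 (DDIT4) was lower with both, and the rest went different ways or were equal. The background was 39.6% of all genes and 53.4% of genes above the median level for higher with both, and 27.7% and 21.3% for lower with both. The median difference over the set was 0.17 with hairpin 1 and 0.14 with hairpin 2, against 0.02 and 0.00 over all genes and 0.10 and 0.04 over genes above the median level. No gene of the set was at least 1.5-fold higher with both hairpins (background 0.794% of all genes and 0.436% above the median level) or 1.5-fold lower (0.302% and 0.0562%), and the largest absolute difference of a member was 0.49. The knockdown was partial: NEDD9 itself was lower by 0.59 with hairpin 1 and 0.41 with hairpin 2. With hairpin 2 NEDD9 thus fell short of 1.5-fold, which is 0.58 in log2, and would not pass this rule either.

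Both hairpins share the single A549 control array, so the error of that array enters every difference alike, and no p comes from it. A limma fit of the hairpin arrays against the control had 1 residual degree of freedom, and 0.577 prior degrees of freedom from the spread over all genes. With Benjamini-Hochberg adjustment over all genes, 0% of genes passed an adjusted p of 0.05 (0 of 14232). The lowest adjusted p of this limma fit was 0.276, both over all genes and in the set. It called no gene, NEDD9 included, so the lack of calls says nothing about the set. At an unadjusted p under 0.05 the fit listed 6 of the 40 genes (15%) as higher (ATF6, ATF3, SHMT2, ASNS, WARS1 and DNAJC3) and 0 as lower, beside 9.68% and 5.92% of all genes and 13.1% and 4.17% of genes above the median level. The 6 genes are thus close to the share among genes of like level. ATF3, higher by 0.14, is on that list with hairpin values that were exactly equal, which leaves no spread between them in the fit. Exactly equal values on 2 or more arrays occurred in 5 of the 40 genes, among them SLC7A5 at 10.92. Their source was not tested.

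The size of the knockdown shift depended on how the arrays were scaled. The median over the set of the mean of both hairpins was 0.14 as deposited, 0.07 after a further quantile normalization and 0.07 after removing the trend with level. The count higher with both hairpins was then 24 in each case, beside 35.6% and 37.6% of genes above the median level. Of the 31 genes, 6 were higher by less than 0.05 with at least 1 hairpin, and 11 of the 40 (27.5%) were higher by at least 0.2 with both, beside 12.6% of all genes and 15.7% of genes above the median level.

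The second comparison asked what raising NEDD9 did in CRL-5907, with 1 array on each side and therefore no test. CTH, which makes cysteine from cystathionine, and ATF3, a stress-induced transcription factor, were at least 1.5-fold higher, and no gene of the set was 1.5-fold lower. The serine synthesis enzymes PHGDH and PSAT1, the chaperone HSPA5, the oxidoreductase PDIA4, the alanyl-tRNA synthetase AARS1 and the transporter SLC1A4 were lower by 0.28 to 0.42. Of the 40 genes, 28 (70.0%) were lower by any amount and 11 higher, and SLC7A5 was equal on both arrays. In the background 42.3% of all genes and 37.0% of those above the median level were lower, and 48.1% and 59.5% were higher. The 1.5-fold rule took 2.90% of all genes and 3.30% above the median level as higher, and 1.35% and 0.759% as lower, so 2 of 40 (5.0%) is near the background. The median over the set was -0.09, against 0.00 over all genes and 0.05 over genes above the median level, and a further quantile normalization moved it to -0.17 and removal of the trend with level to -0.14. At a difference of at least 0.2, 14 of the 40 (35%) were lower with overexpression, beside 13.3% of all genes and 10.6% of genes above the median level.

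The knockdown and overexpression comparisons share no array, so their directions can be set side by side. Higher with both hairpins and lower with NEDD9 overexpression were 23 of the 40 genes (57.5%), against 13.8% of all genes and 16.9% of genes above the median level. Taken separately, 31 of the 40 genes (77.5%) were higher with both hairpins and 28 (70.0%) lower with overexpression. Among genes above the median level these separate shares were 53.4% and 37.0%. A large joint count already follows from the separate shares of the set, so it is not a further result. Whether single genes paired beyond those shares was not tested. The reverse, lower with both hairpins and higher with overexpression, held for 1 gene, DDIT4, beside 10.1% of all genes and 10.2% above the median level. With the further quantile normalization the count of 23 became 19, beside 16.4% of genes above the median level, and with the trend removed it was 19 beside 15.9%. These are directions of small differences in single arrays of different cell lines. The members were chosen as a pathway, with earlier results of these data known, and were not sampled. No test is therefore attached to the count.

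**Figure D1:**
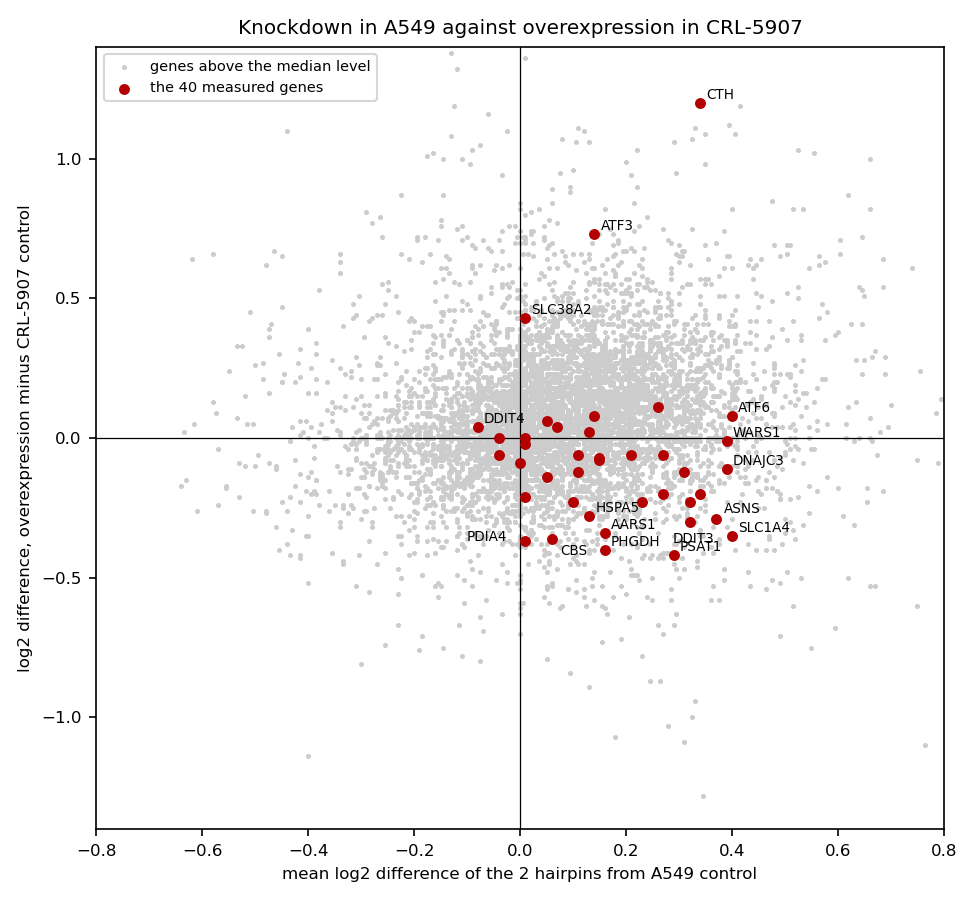
Each point is a gene above the median level (grey) or a gene of the set (red), with the mean log2 difference of the 2 hairpins from the A549 control on the x axis and the log2 difference of NEDD9 overexpression from the CRL-5907 control on the y axis. Most red points lie at the lower right, and 23 of the 40 genes are higher with both hairpins and lower with overexpression, while CTH (1.20) and ATF3 (0.73) stand at the top. The axes end at 0.8 and 1.4 on either side of 0, and 32 grey genes fall outside them.

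Among the sensors, ATF6 and EIF2AK3 were higher with both hairpins while ERN1 was level. ATF6, the membrane-bound factor released by cleavage, read 8.26, 8.70 and 8.61 in A549 and 8.84 and 8.92 in CRL-5907. Both hairpin arrays thus stood above the A549 control, by 0.40 ± 0.06 (SD, n = 2), and all CRL-5907 readings stood above all A549 readings. Here and below, the SD is only the spread between the 2 different hairpins. It leaves out the error of the single A549 control array that they share, so it is not the precision of a knockdown effect. EIF2AK3, which encodes PERK, read 6.17, 6.37 and 6.48 in A549 and 5.33 and 5.44 in CRL-5907, so it was higher with both hairpins by 0.26 ± 0.08 (SD, n = 2) and higher with overexpression by 0.11. ERN1, which encodes IRE1, read 7.12, 7.13 and 7.12 in A549 and 7.77 and 7.56 in CRL-5907. Its hairpin arrays did not leave the control, and its overexpression array was lower by 0.21.

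The transcription factors divided in the same comparisons. DDIT3, the factor CHOP of prolonged ER stress, read 7.08, 7.47 and 7.33 in A549 and 6.58 and 6.28 in CRL-5907. XBP1, counted here as total mRNA without regard to splicing, read 9.50, 9.92 and 9.72 in A549 and 10.14 and 9.91 in CRL-5907. CEBPG, a partner of ATF4 in amino acid genes, read 7.59, 7.85 and 7.79 in A549 and 7.36 and 7.13 in CRL-5907. All 3 of these were higher with both hairpins and lower with overexpression, DDIT3 by 0.32 ± 0.10 (SD, n = 2) and -0.30, XBP1 by 0.32 ± 0.14 and -0.23, and CEBPG by 0.23 ± 0.04 and -0.23.

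ATF4 itself did not follow them at the mRNA level. It read 8.32, 8.49 and 8.29 in A549 and 8.70 and 8.74 in CRL-5907, so hairpin 1 was higher by 0.17 and hairpin 2 lower by 0.03. Its overexpression difference of 0.04 turned to -0.04 once the arrays were quantile normalized again or the trend with level was taken out. CEBPB, a C/EBP factor of inflammation and differentiation, read 9.07, 9.20 and 9.06 in A549 and 10.12 and 9.98 in CRL-5907. The hairpins again went different ways, and its hairpin 1 difference of 0.12 was -0.02 after the further quantile normalization. ATF3, a factor induced by many stresses, read 4.86, 5.0 and 5.0 in A549 and 5.44 and 6.17 in CRL-5907. Overexpression was the highest of its 5 readings and stood 1.65-fold above the CRL-5907 control, which lay below the array medians, and the gene ranked 193 of 14232 from the top by that difference.

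**Figure D2:**
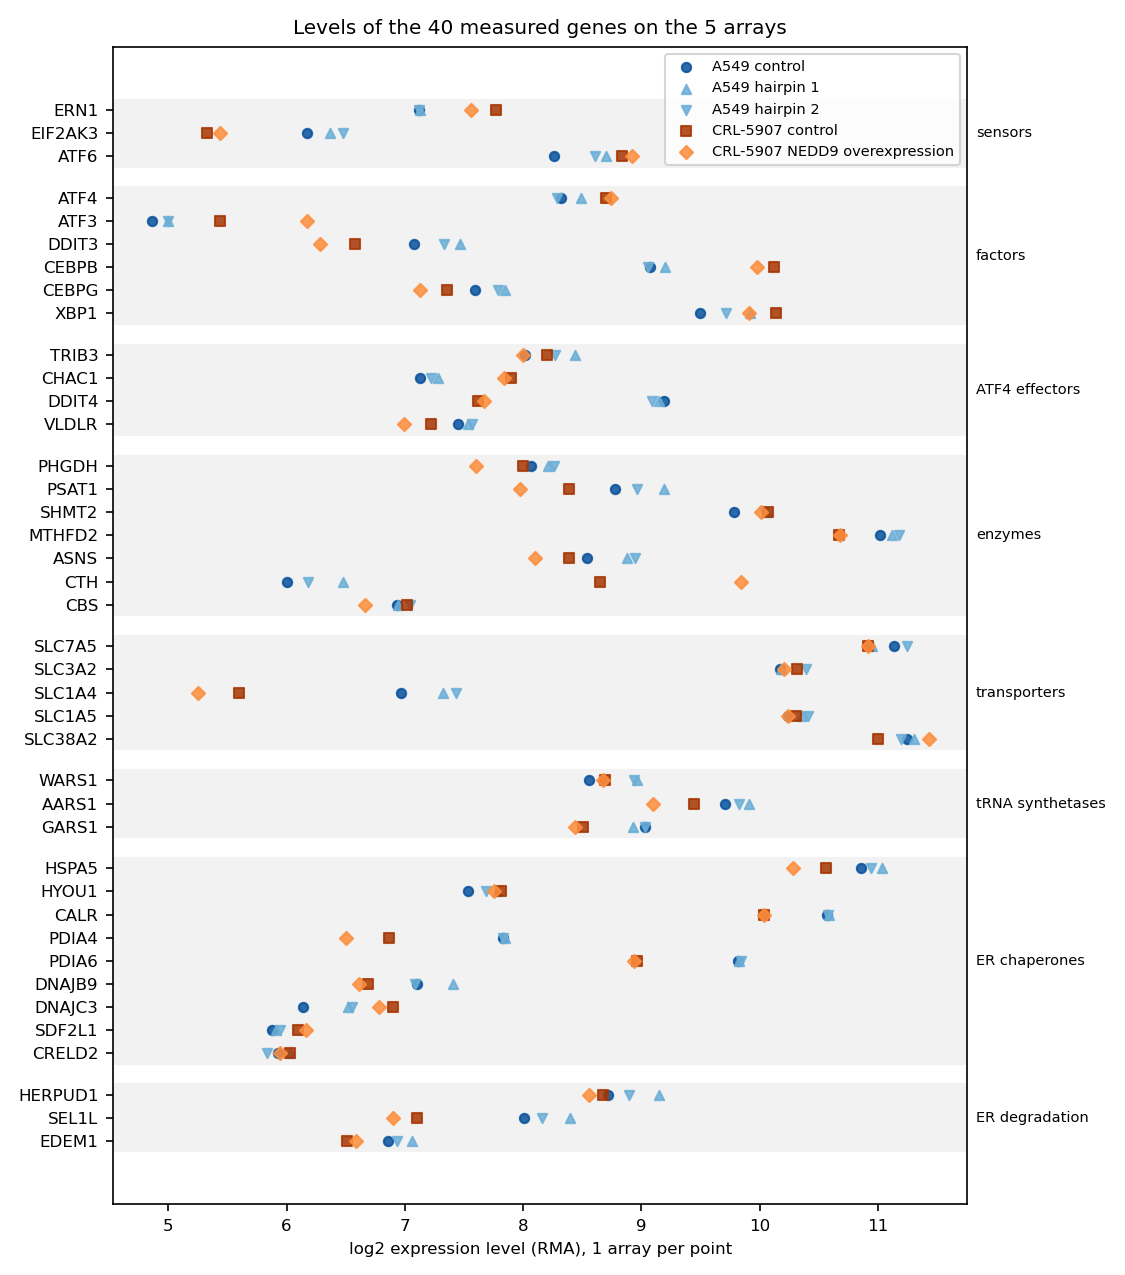
Log2 RMA level (x axis) of each of the 40 genes (rows, grouped by role) on the 5 arrays, 1 marker per array and no error bars because every marker is a single array. CTH, SLC1A4 and DDIT4 (9.09 to 9.19 in A549, 7.62 and 7.67 in CRL-5907) show wide gaps between the lines, while hairpin markers lie close to the A549 control.

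Of the ATF4 effectors, TRIB3 showed the pattern of DDIT3. TRIB3, a pseudokinase that feeds back on ATF4, read 8.02, 8.44 and 8.27 in A549 and 8.20 and 8.0 in CRL-5907. Its hairpin difference was 0.34 ± 0.12 (SD, n = 2) and its overexpression difference -0.20. CHAC1, which breaks down glutathione, read 7.13, 7.28 and 7.22 in A549 and 7.90 and 7.84 in CRL-5907, and VLDLR, a lipoprotein receptor that ATF4 can raise, read 7.45, 7.53 and 7.57 in A549 and 7.22 and 6.99 in CRL-5907. Both were higher with both hairpins and lower with overexpression as deposited, while the hairpin 1 difference of VLDLR, 0.08, was -0.04 once the arrays were quantile normalized again or the trend was taken out. DDIT4, an inhibitor of the growth kinase mTORC1 that also responds to hypoxia, read 9.19, 9.15 and 9.09 in A549 and 7.62 and 7.67 in CRL-5907. It was the 1 gene lower with both hairpins, by 0.08 ± 0.04 (SD, n = 2), and its overexpression difference of 0.04 was -0.04 after the further quantile normalization and -0.03 with the trend removed.

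All 7 measured serine, one-carbon and amino acid enzymes were higher with both hairpins as deposited, with medians of 0.28 and 0.18, CBS by only 0.01 with hairpin 1. The background was 39.6% of all genes and 53.4% of those above the median level. With overexpression 5 of the 7 were lower, with a median of -0.29, beside 42.3% of all genes and 37.0% of those above the median level. The other serine, glycine and one-carbon enzymes, listed further below, went the other way with overexpression. Of those 7 genes, 5 were higher, with a median of 0.42, beside 48.1% of all genes and 59.5% of those above the median level. PHGDH, which takes the first step from glycolysis to serine, read 8.07, 8.21 and 8.26 in A549 and 8.0 and 7.60 in CRL-5907. PSAT1, the next enzyme of the path, read 8.78, 9.19 and 8.96 in A549 and 8.39 and 7.97 in CRL-5907. In both genes the overexpression array was the lowest of the 5, by 0.40 and 0.42 below its control, and the hairpin arrays were the highest. The last enzyme, PSPH, shares its feature with NUPR2 and is outside the counts, and that feature read 8.0, 8.39 and 8.42 in A549 and 6.88 and 6.86 in CRL-5907.

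ASNS, which makes asparagine and carries the element shown above, read 8.54, 8.88 and 8.95 in A549 and 8.39 and 8.10 in CRL-5907. It was higher with the hairpins by 0.37 ± 0.05 (SD, n = 2) and lower with overexpression by 0.29. The mitochondrial folate enzymes moved less with overexpression. SHMT2, which passes a carbon from serine to folate, read 9.78, 10.06 and 10.04 in A549 and 10.07 and 10.01 in CRL-5907, and MTHFD2, the following enzyme, read 11.02, 11.12 and 11.18 in A549 and 10.67 and 10.68 in CRL-5907. Their hairpin differences were 0.27 ± 0.01 and 0.13 ± 0.05 (SD, n = 2), and the overexpression difference of MTHFD2, 0.02, was -0.07 after the further quantile normalization.

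The transsulfuration enzymes CBS and CTH, which carry homocysteine sulfur to cysteine, differed from each other. CBS read 6.93, 6.94 and 7.04 in A549 and 7.02 and 6.66 in CRL-5907, so its overexpression array was lower by 0.36, and its hairpin 1 difference of 0.01 was -0.12 after the further quantile normalization. CTH read 6.0, 6.48 and 6.18 in A549 and 8.65 and 9.84 in CRL-5907. The lines did not overlap, overexpression was 2.29-fold above the CRL-5907 control and ranked 32 of 14232 from the top, and the hairpin difference was 0.34 ± 0.22 (SD, n = 2). CTH was therefore higher in both manipulations.

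**Figure D3:**
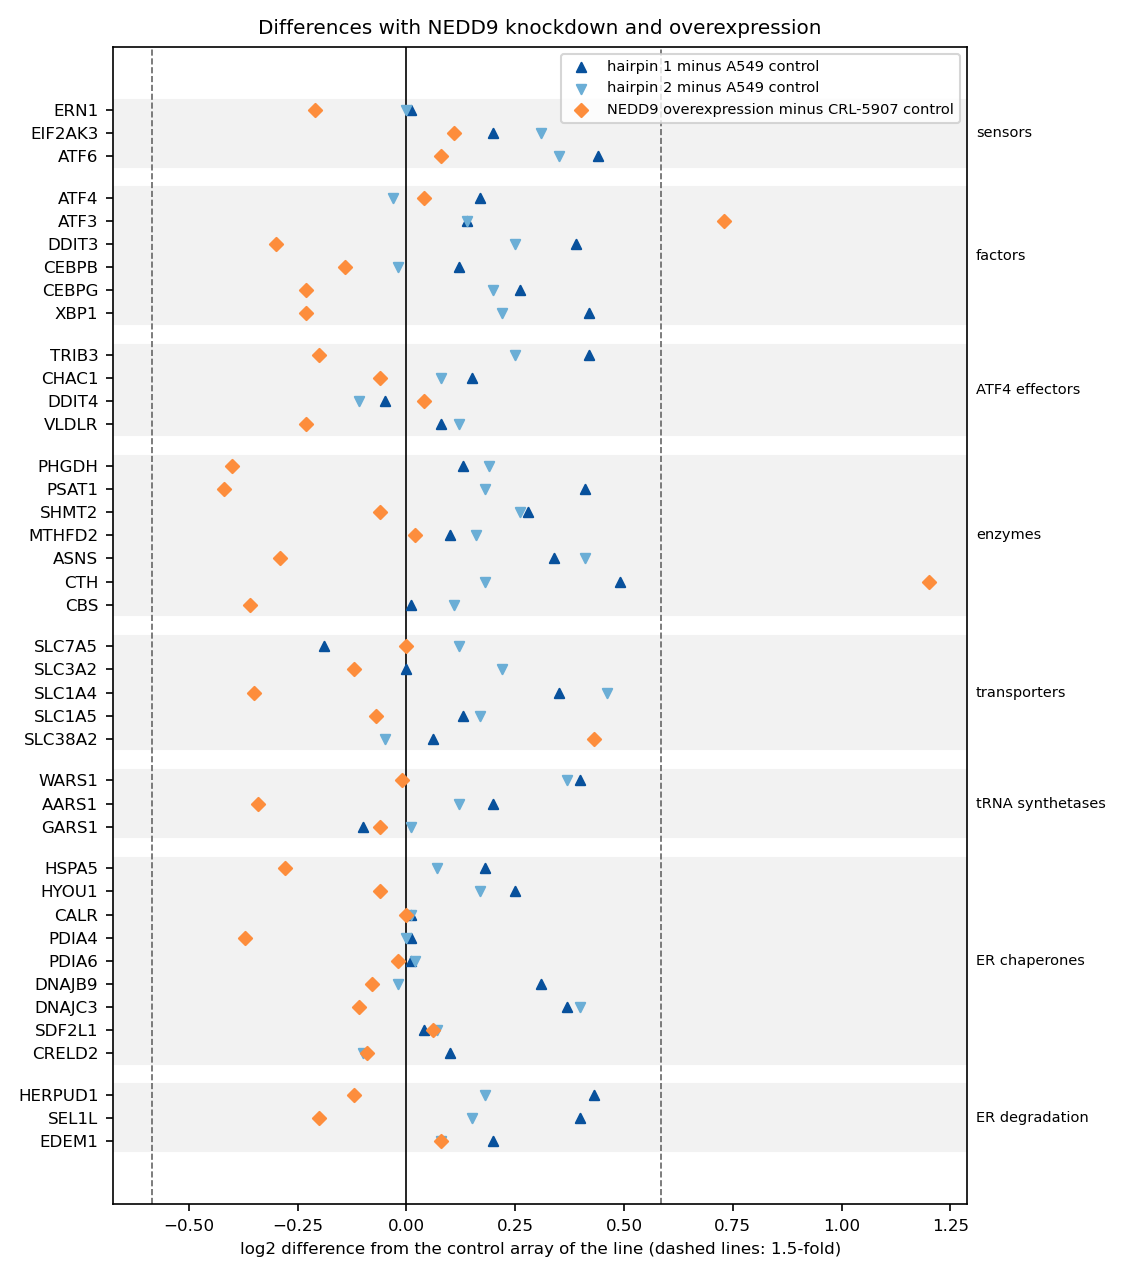
Log2 differences (x axis) of hairpin 1 and hairpin 2 from the A549 control (triangles) and of NEDD9 overexpression from the CRL-5907 control (diamonds) for the 40 genes, grouped by role, with dashed lines at 1.5-fold. Each marker is 1 array against 1 array. Triangles lie mostly right of 0 and diamonds mostly left, and CTH and ATF3 pass the right dashed line.

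Among the transporters, SLC1A4 stood out. SLC1A4, which carries alanine and serine, read 6.97, 7.32 and 7.43 in A549 and 5.60 and 5.25 in CRL-5907. The hairpin arrays were the highest and the overexpression array the lowest, with differences of 0.40 ± 0.08 (SD, n = 2) and -0.35. SLC7A5 and SLC3A2, which together form a carrier of large neutral amino acids, read 11.14, 10.95 and 11.25 and 10.17, 10.18 and 10.39 in A549, and 10.92 and 10.92 and 10.32 and 10.21 in CRL-5907. SLC7A5 was lower with hairpin 1 and higher with hairpin 2. SLC3A2 was higher with hairpin 2 by 0.22, and its hairpin 1 difference rounded to 0.00 but lay above 0. It is therefore counted as higher with both hairpins, although with the other scalings its hairpin 1 difference fell to as low as -0.09. SLC1A5, a glutamine carrier, read 10.24, 10.36 and 10.41 in A549 and 10.31 and 10.24 in CRL-5907. It had 2 features, and their mean turned its hairpin differences from 0.13 and 0.17 to -0.04 and -0.10. SLC38A2, a sodium-coupled amino acid carrier, read 11.25, 11.31 and 11.20 in A549 and 11.00 and 11.43 in CRL-5907, and its overexpression array was higher by 0.43.

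The tRNA synthetases, which charge tRNAs with amino acids, were lower or level with overexpression. WARS1 read 8.56, 8.96 and 8.94 in A549 and 8.69 and 8.68 in CRL-5907, so the hairpins were higher by 0.39 ± 0.02 (SD, n = 2) while overexpression did not leave the control. AARS1 read 9.71, 9.91 and 9.83 in A549 and 9.45 and 9.10 in CRL-5907, with a hairpin difference of 0.16 ± 0.06 and an overexpression difference of -0.34. GARS1 read 9.03, 8.93 and 9.03 in A549 and 8.51 and 8.44 in CRL-5907. Its hairpin 2 difference of 0.01 was -0.02 to -0.08 with the other scalings.

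The ER chaperones and oxidoreductases had knockdown medians over 9 genes of 0.10 with hairpin 1 and 0.02 with hairpin 2, and the hairpin 2 median was -0.01 to -0.04 with the arrays centred, quantile normalized or the trend removed. HSPA5, the chaperone BiP that holds the sensors inactive, read 10.86, 11.04 and 10.94 in A549 and 10.56 and 10.28 in CRL-5907. PDIA4, a disulfide isomerase, read 7.83, 7.85 and 7.83 in A549 and 6.87 and 6.5 in CRL-5907. For both, overexpression was the lowest array, by 0.28 and 0.37 below its control, and the hairpin arrays of PDIA4 stayed within 0.01 of theirs. PDIA4 is counted as higher with both hairpins, but its hairpin differences were -0.11 and -0.06 after the further quantile normalization. DNAJC3, a co-chaperone that also inhibits eIF2 kinases, read 6.14, 6.52 and 6.55 in A549 and 6.90 and 6.78 in CRL-5907, and HYOU1, an exchange factor for BiP, read 7.53, 7.78 and 7.69 in A549 and 7.81 and 7.75 in CRL-5907. Both were higher with both hairpins, by 0.39 ± 0.02 and 0.21 ± 0.06 (SD, n = 2).

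The other 5 chaperones moved little or differed between the hairpins. CALR, a lectin chaperone, and PDIA6, another disulfide isomerase, differed by at most 0.02 from their controls in every manipulation as deposited. With the other scalings their hairpin differences turned below 0, down to -0.08 and -0.04 for CALR and -0.10 and -0.04 for PDIA6, and the overexpression difference of CALR to -0.07. DNAJB9, a co-chaperone raised by XBP1, read 7.10, 7.41 and 7.09 in A549 and 6.69 and 6.61 in CRL-5907, so only hairpin 1 was higher. SDF2L1 and CRELD2, both ER stress-induced chaperone components, read between 5.83 and 6.16 on all arrays, close to the array medians. SDF2L1 was higher with both hairpins by 0.05 ± 0.02 (SD, n = 2), a difference that turned to -0.02 with hairpin 1 after centring the arrays, and CRELD2 was higher by 0.10 with hairpin 1 and lower by 0.10 with hairpin 2. HSP90B1, the ER form of HSP90, shares its brighter feature with a pseudogene and is outside the counts, and that feature read 10.41, 10.64 and 10.54 in A549 and 10.14 and 10.23 in CRL-5907.

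All 3 genes of ER-associated degradation were higher with both hairpins, with medians of 0.40 and 0.15, beside 39.6% of all genes and 53.4% of those above the median level. HERPUD1, which organises the degradation complex, read 8.72, 9.15 and 8.90 in A549 and 8.68 and 8.56 in CRL-5907, and SEL1L, the adaptor of the ubiquitin ligase, read 8.01, 8.40 and 8.16 in A549 and 7.10 and 6.90 in CRL-5907. In both the hairpin 1 array was the highest of the 5, with hairpin differences of 0.31 ± 0.18 and 0.27 ± 0.18 (SD, n = 2), and both were lower with overexpression. EDEM1, which marks misfolded glycoproteins, read 6.86, 7.06 and 6.93 in A549 and 6.51 and 6.59 in CRL-5907. It was 0.08 higher with overexpression.

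The reading with hairpin 1 was above that with hairpin 2 in 25 of the 40 genes (62.5%) and below it in 14 (35%). The background was 51.5% of all genes and 60.6% of those above the median level for above, and 37.3% and 32.4% for below, so the set is close to genes of like level. In bulk samples of this kind, fewer cells expressing a gene and less RNA per cell cannot be told apart.

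The third comparison set the lines against each other. In the control arrays, DDIT4 and SLC1A4 were at least 2-fold higher in A549, by 2.97-fold and 2.57-fold, and CEBPB and CTH were at least 2-fold lower, by 2.06-fold and 6.29-fold. These are 2 of 40 genes (5.0%) in each direction, beside 6.44% of all genes and 9.26% of those above the median level for higher, and 3.53% and 3.95% for lower. With the mean of each line's arrays CEBPB was lower by 0.94 and no longer passed. The median over the set was 0.11, against 0.01 over all genes, and it was 0.00 with the arrays centred, -0.02 after the further quantile normalization and 0.25 between the means of each line's arrays, so the set had no direction between the lines that held with scaling.

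The lines differ in far more than LKB1 and NEDD9, and what sets their levels apart cannot be told apart here. All 3 A549 arrays lay above both CRL-5907 arrays for 21 of the 40 genes, beside 30.1% of all genes and 41.7% of those above the median level, and below both for 9, beside 20.5% and 25.8%. In the limma fit of 3 A549 against 2 CRL-5907 arrays, in which the manipulations count as error, 17 of the 40 genes (42.5%) were higher in A549 and 6 (15%) lower at a Benjamini-Hochberg adjusted p under 0.05. The background was 17.7% of all genes and 26.6% of genes above the median level for higher, and 10.0% and 13.3% for lower. The balance moved with scaling: 13 genes were higher and 9 lower with the arrays centred, beside 23.6% and 22.4% of genes above the median level, and 12 were higher and 9 lower after the further quantile normalization, beside 23.1% and 23.3%. The p-values measure the spread among arrays of 1 cell line each, which the labels do not say came from separate cultures.

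The count of 17 depended on the number of arrays. It was 12 without the A549 control, 9 without hairpin 1, 8 without hairpin 2, 9 without the CRL-5907 control and 7 without overexpression, where in the last 2 fits the lone CRL-5907 array is assumed to vary like the A549 arrays, and the count of 6 was 2 without hairpin 2. The genes called in every one of these fits were 8, namely DDIT4, SLC1A4, GARS1, CALR, PDIA4 and PDIA6 as higher in A549 and CEBPB and CHAC1 as lower. No share over all genes is given for the fits without 1 array, so their counts cannot be set against the background. By the limma fit of all arrays with Benjamini-Hochberg adjustment, DDIT4 was higher in A549 by 1.5 (SE 0.05, adjusted p = 0.000846). In the same limma fit SLC1A4 was higher by 1.81 (SE 0.19, adjusted p = 0.00664) and PDIA6 by 0.88 (SE 0.04, adjusted p = 0.00107). CEBPB was lower in A549, at -0.94 (SE 0.07, limma adjusted p = 0.00333), and CHAC1 at -0.66 (SE 0.06, limma adjusted p = 0.00527). CTH had the largest difference of the set, -3.03 (SE 0.41, limma adjusted p = 0.0114), and the fit without hairpin 2 left it at an adjusted p of 0.0621.

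**Figure D4:**
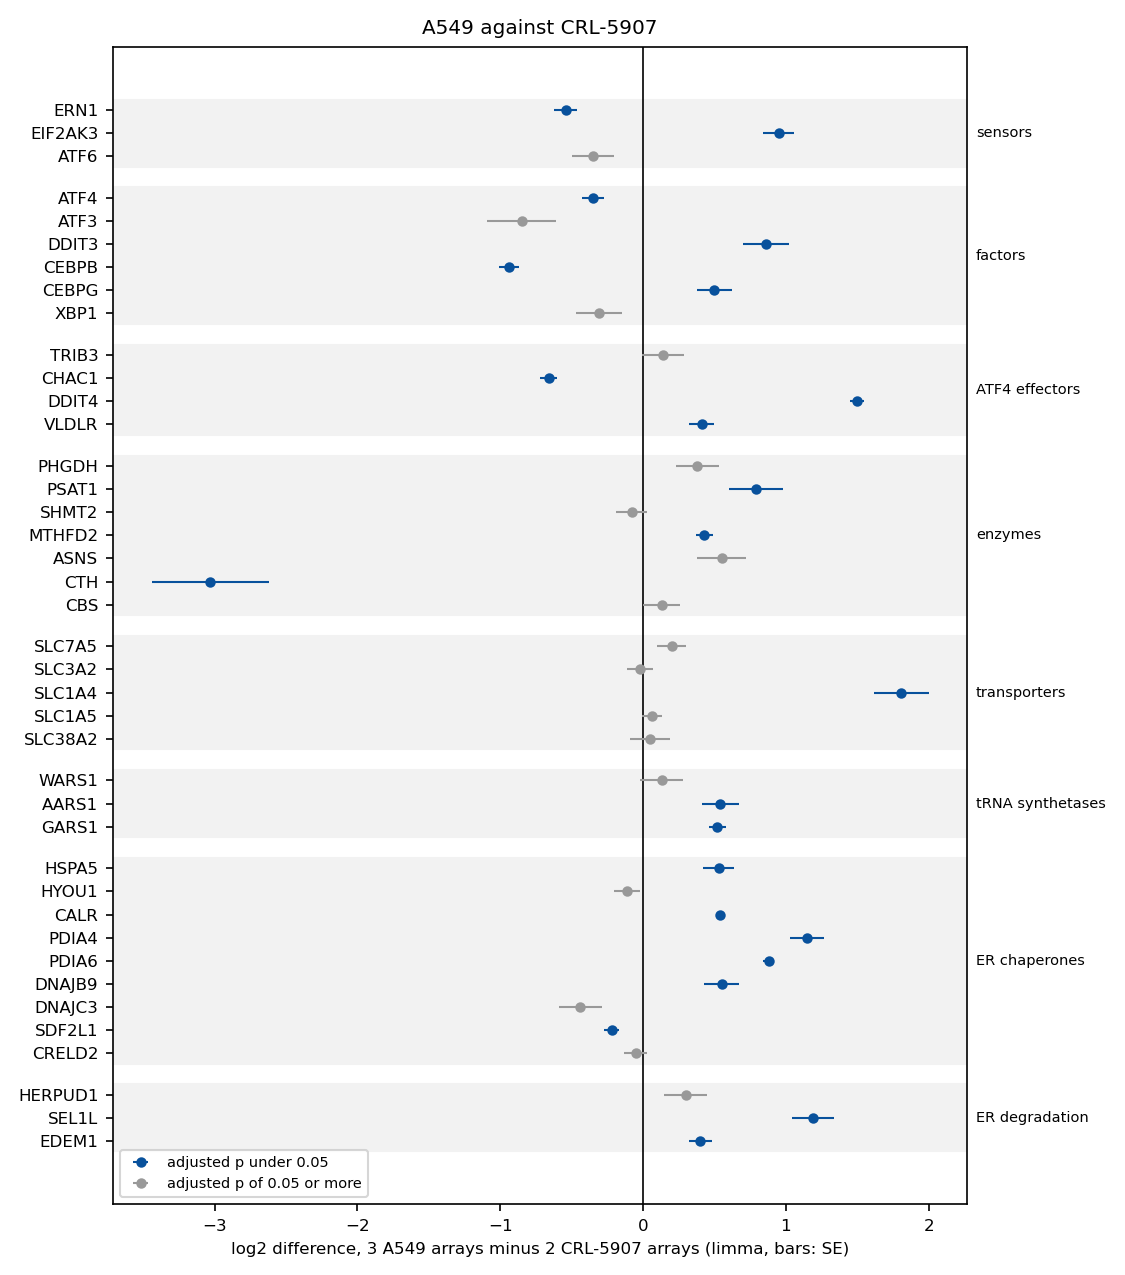
Limma estimates of the log2 difference between 3 A549 and 2 CRL-5907 arrays for the 40 genes, with bars of 1 SE. The 17 genes higher in A549 and the 6 lower at an adjusted p under 0.05 are blue and the others grey, and CTH lies far to the left at -3.03.

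The directions of the ER genes and of the sensors differed between the lines. Among the ER chaperones and degradation genes, 7 of 12 passed the limma fit as higher in A549 (HSPA5, CALR, PDIA4, PDIA6, DNAJB9, SEL1L and EDEM1) and 1, SDF2L1, as lower. The background was 17.7% of all genes and 26.6% of those above the median level for higher, and 10.0% and 13.3% for lower. CALR read 10.57, 10.59 and 10.58 in A549 and 10.04 and 10.04 in CRL-5907, and PDIA6 read 9.82, 9.83 and 9.84 in A549 and 8.96 and 8.94 in CRL-5907. Both genes read nearly the same on all arrays of a line. Of the sensors, EIF2AK3 passed as higher in A549 and ERN1 as lower, and ATF6 did not pass. Of the factors, DDIT3 and CEBPG passed as higher and ATF4 and CEBPB as lower. Among the calls named in this paragraph, only those of CALR, PDIA4, PDIA6 and CEBPB held whichever array was left out. The knockdown and line comparisons share the A549 control array, and the overexpression and line comparisons share the CRL-5907 control array.

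Other genes of these pathways were taken from 7 lists, also chosen with earlier results of these data known. The lists held 102 genes, of which 81 were measured. Of these, 61 were higher with both hairpins and 9 lower, where the background for higher was 39.6% of all genes and 53.4% of those above the median level. With overexpression 37 were higher, beside 48.1% of all genes and 59.5% of those above the median level, and 41 were lower, beside 42.3% and 37.0%. Higher with both hairpins and lower with overexpression were 28, beside 13.8% of all genes and 16.9% of those above the median level. As for the 40 genes, the size of this joint count depends on the separate counts, and pairing beyond them was not tested. The counts of the single lists below read against the same shares. Their medians were 0.16 and 0.15 with the hairpins, 0.00 with overexpression and -0.02 between the control arrays, so unlike the 40 genes they had no median shift with overexpression, a difference that was not tested. The other tRNA synthetases were higher with both hairpins in 13 of 15 genes, with EPRS1, which charges glutamate and proline, at 0.44 and 0.47. The other serine, glycine and one-carbon enzymes held the 1 gene of these lists that passed 1.5-fold with both hairpins, GLDC of glycine breakdown, which read 5.84, 6.86 and 6.63 in A549 and 5.10 and 5.68 in CRL-5907. GLDC was higher in both manipulations, as CTH was. With overexpression 5 of the 7 genes of its list were higher, with a median of 0.42, opposite to the median of the 7 enzymes of the set.

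The other ATF4 targets went both ways. Of 13 measured, 6 were higher with both hairpins and 5 lower, and the medians were 0.00 with each hairpin. PCK2, the mitochondrial phosphoenolpyruvate carboxykinase, read 7.69, 7.96 and 7.91 in A549 and 7.5 and 6.63 in CRL-5907 and was past 1.5-fold lower with overexpression at -0.87, while PPP1R15A, which restores translation by opposing PERK, was higher at 0.74. NUPR1, a stress-induced chromatin protein, read 6.02, 5.82 and 5.91 in A549 and 9.26 and 8.74 in CRL-5907. STC2, a secreted stress protein, was lower with both hairpins, by 0.60 and 0.20. The other ER chaperones and translocation genes were higher with both hairpins in 13 of 16 genes and the other degradation genes in 7 of 10, with HSPA13 at 0.42 and 0.33 and EDEM3 at 0.47 and 0.38. All 8 measured eIF2 kinases and stress regulators were higher with both hairpins. With overexpression 5 of them were higher, EIF2AK2 by 0.55, beside 48.1% of all genes and 59.5% of those above the median level. Of the 12 other transporters, 9 were higher with both hairpins, and SLC36A4 was past 1.5-fold higher with overexpression at 0.79.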

How the data were processed

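Total RNA was depleted of ribosomal RNA and labelled for whole-transcript arrays, per the labels' protocols. The deposited values are log2 levels that the authors made with RMA (Affymetrix Power Tools), as the submitters' processing notes name it; versions and genome build are not given in the sources used here. Of 22011 features, 14432 carried 1 gene symbol in the platform annotation (14404 matched RefSeq), 2408 carried several and 5171 none, which left 14232 genes. No filter on level was applied, and array files give no count depth, so the number of arrays limits the precision. Differences between single arrays were counted at 1.5-fold (manipulations, both hairpins) or 2-fold (control arrays). The limma fits (limma 3.58.1, R 4.3.3) used lmFit and eBayes with trend and Benjamini-Hochberg adjustment over all genes. A check on simulated data gave every gene the same spread. It required recovery by the line fit and the both-hairpin fold rule, but not by the knockdown fit. Every measured member is named, and of the other lists at most the 2 highest and 2 lowest genes in a comparison. The members and lists were chosen with earlier results of these data known. Alternatives were centring, a further quantile normalization, removal of a lowess trend with level, the mean of a gene's features, a filter on level, eBayes without trend and leaving out arrays. Promoter windows came from RefSeq (GRCh38.p14).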

Additional observations from a re-analysis of the deposited data

How the results depend on the processing

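Over all 40 genes, 56 differences changed sign under an alternative scaling or choice of features, in 18 genes, and the largest of them was 0.17 as deposited. CEBPB, at -0.94 between the means of each line's arrays, no longer passed 2-fold. The knockdown median of 0.14 was 0.10 with arrays centred, 0.07 after quantile normalization, 0.07 with the trend removed and 0.14 to 0.17 with 1 hairpin. The overexpression median of -0.09 was -0.17 after quantile normalization and -0.14 with the trend removed. The control-line median of 0.11 was 0.00 centred, -0.02 quantile normalized, 0.00 with the trend removed, 0.15 over genes above the median level and 0.25 between line means. With genes above the median level only, 1 gene was past 1.5-fold with overexpression, since ATF3 was filtered. Line means gave 4 genes 2-fold higher and 1 lower. No share over all genes is given here for line means or for the fits without 1 array, so these counts cannot be set against the background. The limma fit of the lines called 13 genes higher and 9 lower with arrays centred and 12 and 9 after quantile normalization. Without 1 array, the limma fit of the lines called 7 to 12 genes higher and 2 to 5 lower; fewer arrays were fitted. Counts higher with both hairpins ran from 24 to 31, counts lower with overexpression from 28 to 33 and opposite counts from 19 to 23 over the scalings. The limma fit of knockdown called 0 members under every alternative run. With 1 residual degree of freedom it called 0 of all 14232 genes as deposited, so this count says nothing about the members. No paired analysis was possible because each line had a single control array, shared by both hairpins in A549. With 1 control array a line, the error of that array cannot be told apart from the manipulations.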
